A study of Mus musculus with 2 samples.

Results

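Fibroblasts of the leptomeninges and of the perivascular space were taken from 2 droplet libraries of mouse brain as the barcodes with a UMI (unique molecular identifier, 1 counted RNA molecule) of at least 3 of Dcn, Col1a1, Col1a2, Lum, Slc6a13, Col3a1 and Ranbp3l. Such a barcode was a member only if it also held at most 2 UMIs of the endothelial genes Flt1, Pecam1 and Mecom together and at most 1 UMI of Slc17a7, Cx3cr1, Kcnj8 and Mog together. These limits left 163 members among the 24541 barcodes that reached 500 genes and stayed within 5% mitochondrial UMIs. Both libraries came from Shank3-/- mice, which lack a scaffold protein of excitatory synapses. The vehicle library (labelled MOCK) was from mice given vehicle, whose route is not stated, and the fluconazole library from mice that drank the antifungal azole fluconazole in their water over 2 weeks. Brain is the tissue in the sample labels and prefrontal cortex that in the series' design, and neither gives the number, age or strain of the mice behind a library. Cells and nuclei are both mentioned in the design, and only nuclei of frozen tissue in the extraction protocol, so the droplets are called barcodes.

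Fibroblasts of the leptomeninges form the arachnoid and the pia that wrap the brain, and related cells follow arteries and larger veins into the tissue. They lay down collagens, laminins and small proteoglycans, and through solute carriers they take amino acids, organic anions and other solutes out of the cerebrospinal fluid. They are also known as a source of retinoic acid, of bone morphogenetic proteins and of the chemokine Cxcl12. Dcn (decorin) and Lum (lumican) are small proteoglycans that coat collagen fibrils, Col1a1, Col1a2 and Col3a1 are chains of fibrillar collagens, Slc6a13 is a transporter of GABA and taurine, and Ranbp3l is a nuclear export factor used as a marker of these cells.

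The vehicle library held 101 members among 13465 barcodes (0.750%, exact 95% Clopper-Pearson interval 0.611 to 0.911) and the fluconazole library 62 among 11076 (0.560%, 0.429 to 0.717). The ratio of the shares was 0.746, with an interval of 0.535 to 1.03, so a difference was not detectable at this depth. Intervals here and below are at 95% and cover counting error only, and with 1 library per treatment there was no test between treatments. Members were shallow, with medians of 2823 and 3310 UMIs against 4422 and 5410.5 over all barcodes, and they summed to 387295 and 224351 UMIs. At least 3 rule genes were found in 184 vehicle and 121 fluconazole barcodes, and those that a limit on other cells' genes then left out had deeper medians of 5909 and 7657 UMIs. The limits therefore also removed deep barcodes. No barcode sequence belonged to a member in both libraries. Shank3 itself was at 28.4 and 40.1 CPM (UMIs of a gene per 1000000 UMIs of the barcodes summed) in the vehicle and fluconazole members, and since both libraries carry the same genotype and the position of the deletion is not given, this level checks no label.

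The rule chose the members by these genes, so their levels only describe the choice. Members with exactly 3 rule genes numbered 52 (vehicle) and 28 (fluconazole), and 115 and 102 barcodes within the other limits had exactly 2. On genes the rule did not use, the amino acid transporter Slc6a20a stood at 789 and 1369 CPM in the members with 3 rule genes and at 453 and 408 CPM in the barcodes with 2. Pdgfra, the PDGF receptor alpha that fibroblasts and oligodendrocyte precursors carry, was at 89.7 and 173 CPM just inside the limit and at 29.4 and 16.7 CPM just outside it. With 4 or more rule genes, Pdgfra reached 386 and 503 CPM.

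Among fibroblast genes that the rule did not use, Slc6a20a was detected in 70.3% and 77.4% of the vehicle and fluconazole members, Tbx18, a T-box factor of pericytes and meninges, in 55.4% and 62.9%, and Pdgfra in 44.6% and 53.2%. In microglia these genes were found in at most 1.72% of barcodes. Of the other such markers, the forkhead factor Foxc1 was detected in 42.6% and 32.3% of the members, against at most 1.92% of microglia. Igf2 was detected in only 2.97% and 8.06% of the members. The label's own markers are rule genes, so their detection describes the choice and supports nothing. Dcn was detected in 59.4% of the vehicle and 58.1% of the fluconazole members, Col1a1 in 49.5% and 50%, Slc6a13 in 79.2% and 83.9%, and Ranbp3l in 72.3% and 85.5%. In microglia, which should lack them and had deeper medians of 4687 and 6010 UMIs, Dcn was found in 0.768% and 0.598% of barcodes and Ranbp3l in 2.87% and 2.53%. After thinning to 1500 UMIs, which kept 80 vehicle and 54 fluconazole members and left out 21 and 8, Dcn was found in 47.5% and 51.9%, Col1a1 in 30.0% and 31.5%, Slc6a13 in 62.5% and 75.9%, and Ranbp3l in 53.8% and 66.7%. Clustering of the members alone gave 5 groups, of which the third was split into 3a and 3b. Group 3b (9 vehicle and 2 fluconazole barcodes) was led by neuronal genes such as Nrxn3, a presynaptic adhesion protein, at 4495 CPM. It held 24.7% of the vehicle and 6.68% of the fluconazole members' UMIs. Its 2 fluconazole barcodes had no UMI of the glutamatergic and GABAergic marker lists. Their astrocyte list stood at 7736 CPM, against 877 CPM in its vehicle barcodes. Group 5 (8 and 2 barcodes) was led by contractile genes, with smooth muscle actin Acta2 at 4160 CPM and its partner Tagln at 3968 CPM, and its summed smooth muscle list stood at 14908 CPM against at most 334 CPM in the other groups. The summed level of 12 fibroblast markers was 2302 CPM in group 3b and 2068 CPM in group 5, against 7172 CPM in group 1 and 10780 CPM in group 2. Group 4 was also low, at 2807 CPM with 7 of the 12 detected, and its pial list stood at 30.7 CPM, against 1684 and 2442 CPM in groups 1 and 2. Groups 3b, 4 and 5 therefore went against the label on these lists. Group 4 nonetheless held the most collagen RNA (6074 CPM) and arachnoid barrier RNA (1411 CPM) of the groups. Treatments are compared within groups 1 and 2, with pooled values as a description. Group 2 was not free of genes on other classes' marker lists. Its pericyte list stood at 4191 CPM with 5 of 8 genes detected (3363 CPM in vehicle and 5286 CPM in fluconazole). The same list was at 399 CPM in group 1, 10532 CPM in group 5 and 22672 CPM in pericytes. Of its genes, Rgs5 and Higd1b were at 35.1 and 3.51 CPM over the members outside group 5, and the rule limited Kcnj8. Other genes of the list therefore made up most of the group 2 sum. The part of this list in the treatment ratios of group 2 was not tested. The choroid plexus gene Ttr was at 0 in every group. The whole list of 6 choroid plexus markers was at 257 CPM in group 1, all from 1 gene, and at most 55.6 CPM in the other groups. The 8 border macrophage markers had 70 UMIs in the vehicle members, 66 of them in 1 barcode of group 2, and 1 UMI in the fluconazole members.

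**Figure D1:**
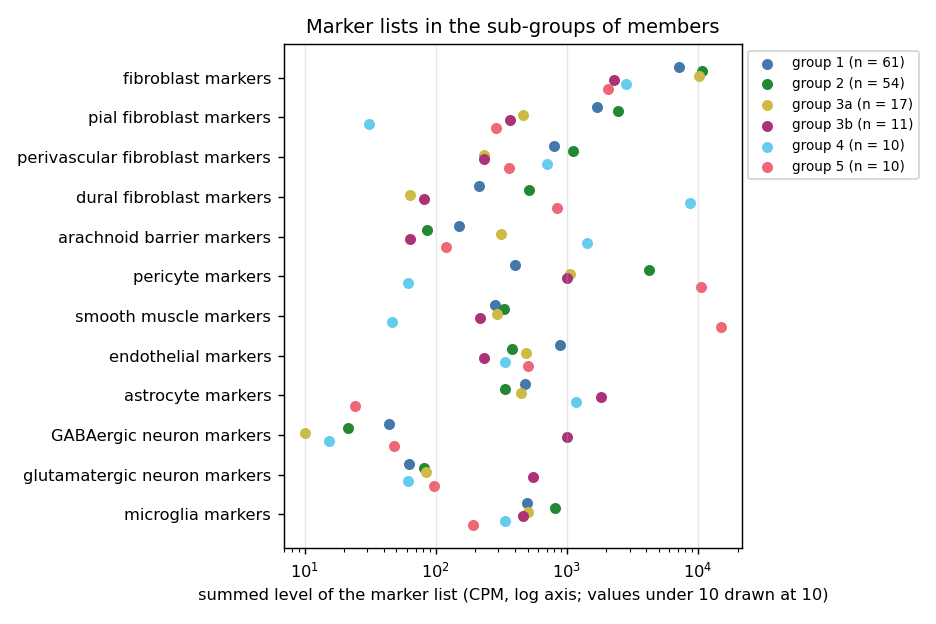
Summed level of each list of cell type markers (CPM, log axis) in the 6 groups of members, 1 point per group over both libraries. Groups 1, 2 and 3a lie furthest right for the fibroblast markers (7172 to 10780 CPM), and group 5 for the smooth muscle and pericyte markers. Group 3b lies furthest right for the GABAergic markers (1002 CPM, all from vehicle barcodes) and the astrocyte markers (1805 CPM). Group 4 does so for the dural markers (8605 CPM).

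The most abundant messenger RNA of the members was Ptgds, the prostaglandin D2 synthase that is also a carrier protein of cerebrospinal fluid, at 15234 CPM in the vehicle and 11839 CPM in the fluconazole members. The heparin-binding growth factor Ptn was at 4839 and 7274 CPM, Apod, a lipocalin that binds lipids, at 4519 and 5264 CPM, and the lipid carrier Apoe at 3868 and 3954 CPM. The cation channel Trpm3 was at 3744 and 8678 CPM and the orphan nuclear receptor Rora at 3537 and 5589 CPM. The transcription factor Zbtb20 was at 3029 and 4283 CPM. The nuclear RNA Malat1 exceeded them all at 36029 and 49730 CPM. These are levels per UMI from 3′ ends.

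Outside the rule genes, among genes with at least 100 UMIs, the genes furthest above all other barcodes of their own library were, as a mean of both libraries, Fam180a at 434-fold, Slc22a6 at 293-fold, Col13a1 at 288-fold, Aldh1a2 at 187-fold, Aox3 at 168-fold and Spp1 and Igfbp2 at 159-fold each. Slc22a6 is an organic anion transporter, Col13a1 a transmembrane collagen, Aldh1a2 the enzyme that makes retinoic acid, Aox3 an aldehyde oxidase, Spp1 the matricellular protein osteopontin and Igfbp2 a binding protein for insulin-like growth factors. Next came Lama1, a laminin chain of the pial basement membrane (143-fold), the sulfate transporter Slc13a4 (138-fold), the collagen IV chain Col4a6 (134-fold), the adhesion protein Svep1 (110-fold), the bone morphogenetic protein Bmp6 (99.1-fold) and the cystine-glutamate exchanger Slc7a11 (85.5-fold). The list mixed transporters, basement membrane and secreted factors. Since the rule picked barcodes by related genes, these folds are a description.

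Set beside the vascular barcodes, some of these genes were shared and some were not. In pericytes (277 and 283 barcodes), Ptn stood at 6758 and 7042 CPM and Slc6a20a at 810 and 808 CPM, within a 2-fold range of the members' levels. Slc7a11 was at 10.9 and 7.85 CPM in pericytes, at 39.5 and 30.1 CPM in smooth muscle barcodes and at 14.9 and 14.5 CPM in endothelial barcodes, against 2223 and 3624 CPM in the members. Igfbp2 was at most 30.1 CPM and Aldh1a2 at most 1.36 CPM in those 3 classes. Foxc1, a forkhead factor of meningeal and mural cells, separated the members little, at 204 and 267 CPM against 199 and 213 CPM in pericytes and 144 CPM in endothelial barcodes of each library. Cxcl12 was higher in endothelial barcodes (1377 and 1462 CPM) than in the members (829 and 758 CPM).

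The 2 main groups differed in which of these genes they carried, and since the same genes made the groups this is a description. Group 1 had 61 members (41 vehicle and 20 fluconazole) with a median of 1709 UMIs, and group 2 had 54 (31 and 23) with a median of 4052.5 UMIs. Group 1 held more Ranbp3l (2429 against 1013 CPM), Bmp6 (3457 against 1189 CPM), Slc7a11 (5186 against 3707 CPM), Lama1 (1631 against 1108 CPM), Cemip, which breaks down hyaluronan (2216 against 1745 CPM), and Glis3, a zinc finger factor (559 CPM). Group 2 held more of other products: Ptgds at 29124 against 1658 CPM (a log2 difference of 4.13, 3.93 to 4.35), Apod at 11028 against 1037 CPM (3.41, 3.14 to 3.69), Apoe at 8095 against 496 CPM (4.03, 3.64 to 4.44), Dcn at 2741 against 381 CPM (2.85, 2.40 to 3.33) and Spp1 at 1928 against 17.7 CPM (6.77, 4.90 to 9.82). By list, secreted factors (11835 and 60801 CPM in groups 1 and 2) and proteoglycans (2110 and 10429 CPM) were higher in group 2, whereas basement membrane genes were higher in group 1 (7199 and 6542 CPM). The lists meant to tell pial from perivascular fibroblasts did not part them. The pial list summed to 1684 CPM in group 1 and 2442 CPM in group 2, and the perivascular list to 798 and 1108 CPM. Aldh1a2 was equal, at 452 and 453 CPM. Group 1 was itself mixed: a finer clustering split it into parts of 45 and 16 barcodes. The pial list stood at 1122 and 3704 CPM in these parts, and the perivascular list at 521 and 1791 CPM. In the part of 16 barcodes, Lama1 was at 3663 CPM, with a UMI in 10 of them.

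Of the smaller groups, 3a (4 vehicle and 13 fluconazole barcodes) was marked by Trpm3 at 40158 CPM, with 26460 to 73666 CPM in single barcodes, so every one of its barcodes held much of this RNA. It also had the adhesion molecule Alcam at 14005 CPM, Ranbp3l at 4155 CPM and Slc6a20a at 3902 CPM. Group 4 (8 vehicle and 2 fluconazole barcodes) carried the calcification inhibitor Mgp at 6043 CPM, the bicarbonate transporter Slc4a10 at 5384 CPM, Fxyd5, a modulator of the sodium pump, at 2316 CPM and the organic cation exporter Slc47a1 at 1442 CPM. It had no UMI of Slc6a13, Lum or Slc22a6, and its dural list summed to 8605 CPM and its arachnoid barrier list to 1411 CPM, against at most 842 and 316 CPM in the other groups. Collagen RNA was highest in group 4 (6074 CPM for 18 collagen genes), followed by group 2 (3823 CPM), group 5 (2693 CPM) and group 1 (2518 CPM). With so few barcodes these groups are only counted.

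RNA quality measures moved with the groups. The median mitochondrial share was 0.468% in group 1 and 2.57% in group 2, and ribosomal protein transcripts made up 0.716% and 3.53% of UMIs. Within group 1, ribosomal protein transcripts made up 0.951% of vehicle and 0.393% of fluconazole UMIs, and Malat1 4.24% and 4.36%. Within group 2, ribosomal protein transcripts made up 4.01% and 2.89%, mitochondrial ones 2.73% and 2.41%, and Malat1 3.43% and 4.90%. A mitochondrial share above 2% was seen in 23 of 31 vehicle and 13 of 23 fluconazole barcodes of group 2. Pericytes, smooth muscle, endothelial barcodes and microglia had nearly equal ribosomal shares in both libraries (log2 ratios of -0.08, 0.01, 0.06 and 0.01). The part of this make-up in the differences between treatments below was not tested.

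**Figure D2:**
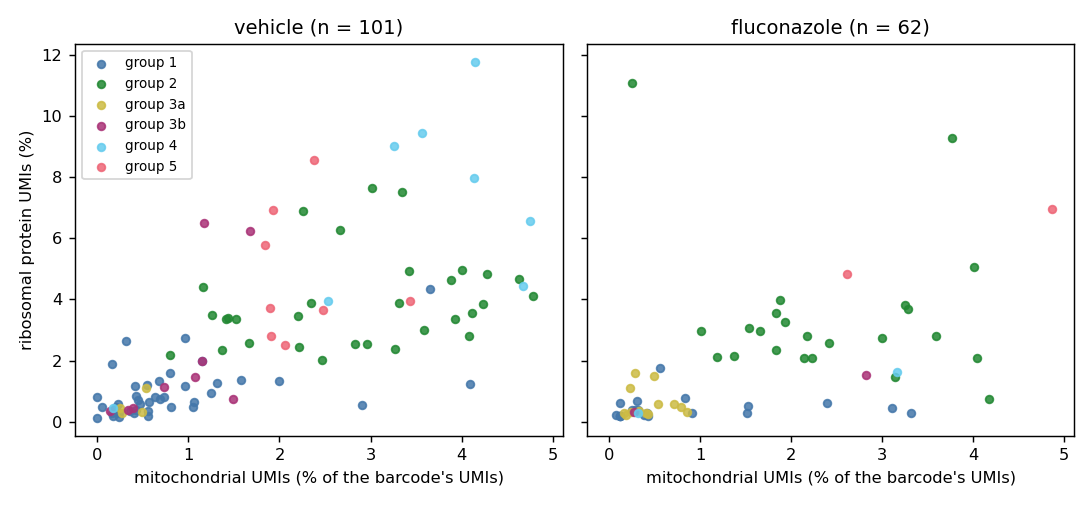
Share of ribosomal protein UMIs against the share of mitochondrial UMIs (both % of a barcode's UMIs) for each member, vehicle on the left and fluconazole on the right, coloured by group. Group 1 and group 3a crowd near the origin, and group 2 spreads upward and to the right in both libraries.

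Pooled over all members, 50.2% of the 6421 genes with at least 20 UMIs were higher in fluconazole. Of the 2893 genes with at least 50 UMIs, 2.97% (86 genes) were at least 2-fold higher and 8.68% (251 genes) at least 2-fold lower. Among the 15 genes ranked first as higher stood the adhesion protein Igsf8 at 103 CPM in vehicle and 334 CPM in fluconazole (log2 ratio 1.69, 1.12 to 2.29), Trpm3 (1.21, 1.11 to 1.31), the zinc finger factor Zbtb16 (1.73, 1.04 to 2.46), Rreb1 (1.45, 0.92 to 1.99), the actin regulator Mical3 (1.25, 0.87 to 1.64), Alcam (0.97, 0.84 to 1.11) and Slc13a4 (1.24, 0.78 to 1.70). Several of these followed the mix of groups. Trpm3 was at -0.16 within group 1, and in group 2 it had UMIs in 4 vehicle barcodes (89.1% of them in 1) and in no fluconazole barcode. Group 3a, with 13 of its 17 barcodes from fluconazole, held 1904 of its UMIs. Alcam stood at 0.50 within group 1 and -0.82 within group 2, where 71.6% of the vehicle UMIs came from 1 barcode. Igsf8 was at 0.04 (-1.03 to 1.08) in group 1 and 1.19 (0.05 to 2.41) in group 2. These groups held 20 and 11 of its 40 vehicle UMIs, and 15 and 19 of its 75 fluconazole UMIs. Slc13a4 was at 0.74 (-0.37 to 1.87) in group 1 and 0.26 (-0.43 to 0.93) in group 2. Rreb1 went from 230 to 652 CPM in group 1, and from 128 to 159 CPM (0.32) in group 2. Mical3 kept its size, with 1.27 in group 1 and 1.26 in group 2. Zbtb16 was at 2.78 and 2.77, from 2 and 10 UMIs in group 1.

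Among the genes ranked first as lower, Fxyd5 (411 and 80.2 CPM, log2 ratio -2.36, -3.15 to -1.65) is a leading gene of group 4. Ctnna2, an alpha catenin of neurons (-2.41), had 163 of its UMIs in group 3b, and Galnt13, a glycosyltransferase (-2.38), had 41 in group 4. Both groups were mostly from the vehicle library. Others belonged to the early response to stimulation: the phosphatase Dusp1 (302 and 75.8 CPM, -2.0, -2.82 to -1.25), the transcription factor subunits Fosb (-1.66, -2.21 to -1.15) and Jun (-1.30, -1.70 to -0.92), Ier2 (-1.58, -2.22 to -0.99) and the matricellular protein Ccn1 (-1.90, -2.76 to -1.13). Many UMIs of these early genes also lay outside groups 1 and 2. Of 293 vehicle and 69 fluconazole Jun UMIs, group 1 held 4 and 6 and group 2 held 81 and 8. Of 145 and 28 Ier2 UMIs, group 1 held 1 and 2 and group 2 held 33 and 7. In vehicle, the immediate early genes as a list were at 19992 CPM in group 4 and 7214 CPM in group 2. The ribosomal protein genes Rps12 and Rpl23a were at -1.40 and -1.59. First of all was Tmem267, a membrane protein of little known function, at 279 CPM in 39 of 101 vehicle members and 17.8 CPM in 4 of 62 fluconazole members (-3.97, -5.87 to -2.57). In group 2 the gene had 3 UMIs in each library (0.40, -2.50 to 3.30), so no gap was seen there. Outside the members the gap was present: over all other barcodes Tmem267 stood at 278 and 13.3 CPM, and its log2 ratio was between -2.61 and -3.76 in pericytes, smooth muscle, endothelial barcodes and microglia.

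**Figure D3:**
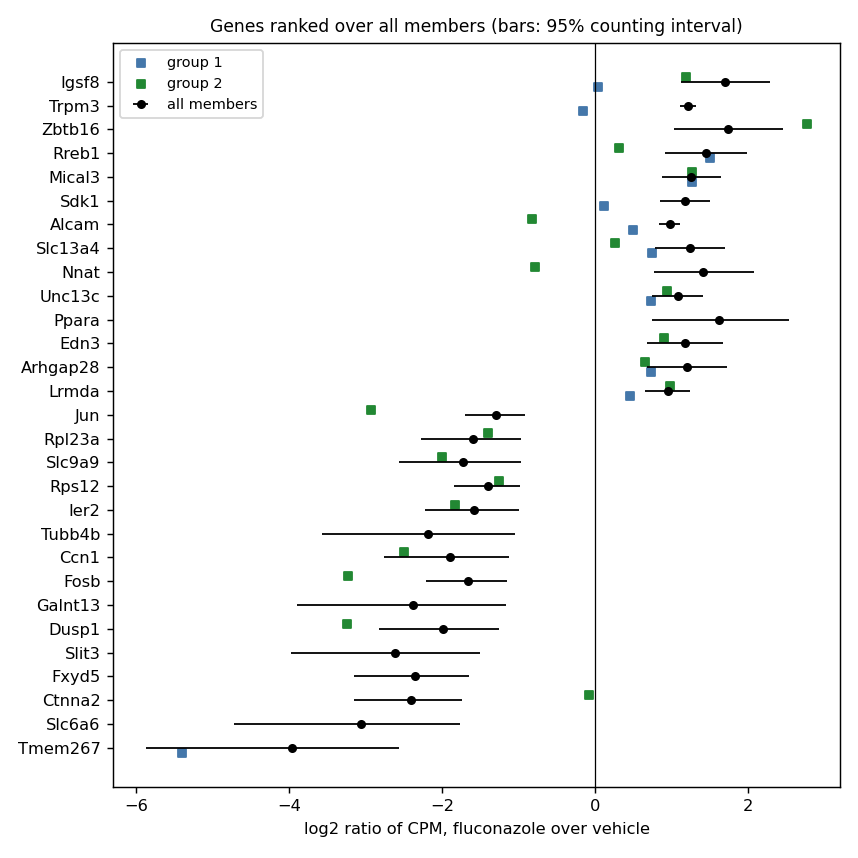
Log2 ratio of fluconazole over vehicle CPM for genes ranked first as higher and as lower over all members (black points, bars: 95% counting interval), with the ratios within group 1 and group 2 as squares where at least 20 UMIs were counted. Trpm3, Alcam and Nnat each have a square on the left of 0 although the pooled point lies on the right, and Mical3 has all 3 marks near 1.25.

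Within group 1, 55.4% of 1184 genes were higher in fluconazole, and of 319 genes with at least 50 UMIs 4.08% (13) were at least 2-fold higher and 2.51% (8) at least 2-fold lower. Cemip went from 1440 CPM in vehicle to 3282 CPM in fluconazole (log2 ratio 1.19, 0.81 to 1.57), with UMIs in 20 of 41 and 15 of 20 barcodes. Mycbp2, a ubiquitin ligase, was at 322 and 799 CPM (1.31, 0.51 to 2.16), and Prickle2, of the planar polarity pathway, at 429 and 989 CPM (1.2, 0.50 to 1.93). The co-receptor Tgfbr3 (betaglycan) was at 720 and 1368 CPM (0.93, 0.36 to 1.5). The IGF1 receptor gene Igf1r, which the study's title names, was at 720 and 1304 CPM (0.86, 0.29 to 1.44), in 24 of 41 and 19 of 20 barcodes. In group 2 it stood at 510 and 487 CPM (-0.07, -0.63 to 0.48), and the difference between the groups was not tested. Counting only barcodes with no UMI of the excluded cell types' genes brought the group 1 value for Igf1r to 0.13. Endothelial barcodes carried more Igf1r, at 1542 and 2113 CPM (0.45), and pericytes less, at 241 and 232 CPM (-0.05).

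On the lower side of group 1, behind Tmem267 (58 UMIs against 1), came the actin regulator Phactr1 (766 and 295 CPM, -1.38, -2.35 to -0.50), the protease inhibitor Cst3 (843 and 358 CPM, -1.24, -2.11 to -0.43) and the neurotrophin receptor Ntrk3 (812 and 358 CPM, -1.18, -2.06 to -0.37). Ntrk3 had the opposite sign in group 2, at 323 and 696 CPM (1.11, 0.54 to 1.69). The markers Slc6a20a (1731 and 1136 CPM, -0.61, -1.10 to -0.13) and Ranbp3l (2758 and 1978 CPM, -0.48, -0.86 to -0.11) were lower too. The rule used Ranbp3l to choose members.

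Within group 2, 47.3% of 2680 genes were higher in fluconazole, and of 775 genes with at least 50 UMIs 2.84% (22) were at least 2-fold higher and 4.52% (35) at least 2-fold lower. The creatine-making enzyme Gatm was at 218 and 566 CPM (1.38, 0.71 to 2.08), Gramd3, of a family of lipid-binding proteins, at 135 and 388 CPM (1.52, 0.68 to 2.41), and the formin Diaph2 at 510 and 1033 CPM (1.02, 0.56 to 1.48). Slc7a11 went from 2875 to 4809 CPM (0.74, 0.55 to 0.94), with medians over barcodes of 3040 and 3887 CPM. Ptn went from 9098 to 13851 CPM (0.61, 0.49 to 0.72), with medians of 9499 and 13262 CPM. The barcodes of both libraries overlapped widely, and only 3 fluconazole barcodes for Slc7a11 and 2 for Ptn exceeded the highest vehicle barcode. Malat1 was at 34312 and 49005 CPM (0.51, 0.46 to 0.57). In the barcodes with at most 2% mitochondrial UMIs the ratios were 0.16 for Ptn and 0.10 for Malat1.

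Ptgds, the leading product of group 2, was at 33262 CPM in vehicle and 23648 CPM in fluconazole (-0.49, -0.56 to -0.42). Single barcodes ran from 0 to 223643 CPM with a median of 34603 CPM in vehicle, and from 0 to 164869 CPM with a median of 4410 CPM in fluconazole, a spread far wider than the counting interval. The sign turned to 0.35 among barcodes with at most 2% mitochondrial UMIs. Apod, by contrast, differed little, at 11042 and 11009 CPM (0.00, -0.12 to 0.11), as was Dcn at 2777 and 2693 CPM (-0.04, -0.28 to 0.19). Other genes lower in group 2 were the transcription factor Zeb2 (488 and 159 CPM, -1.62, -2.51 to -0.81), the guidance receptor Robo1 (458 and 199 CPM, -1.2, -2.01 to -0.46) and the ribosomal genes Rps12, Rpl12, Rpl23a and Rpl41 (-0.92 to -1.40).

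**Figure D4:**
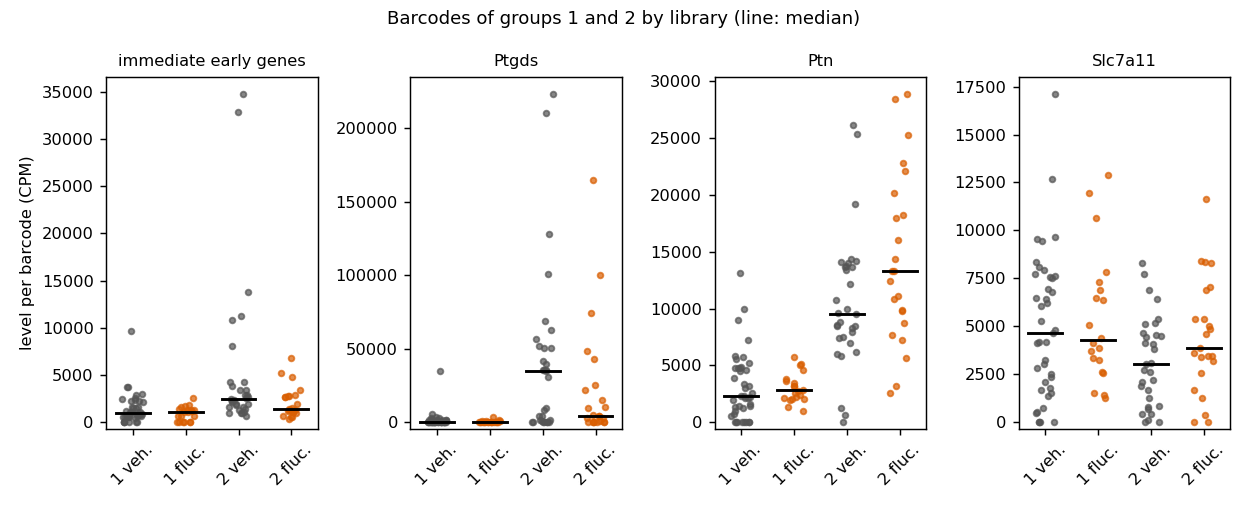
Level per barcode (CPM) in the vehicle and fluconazole barcodes of groups 1 and 2, 1 panel per gene or list, 1 point per barcode, with a line at the median. In group 2 the immediate early genes reach 34828 CPM in vehicle and 6745 CPM in fluconazole, with 6 of 31 vehicle barcodes above every fluconazole one, and the other panels overlap over most of their range.

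The gene list that stood furthest apart was that of 24 immediate early genes, the transcription factors and feedback regulators induced within minutes of stimulation or of tissue handling. In group 2, 0 of 16 measured members (at least 20 UMIs) were higher in fluconazole, beside 47.3% of all genes measured. Of the 16, 13 were at least 2-fold lower. Over all genes that share was 4.52%, though counted at a minimum of 50 UMIs rather than 20. Their median log2 ratio was -1.81 beside -0.03 over all genes. The AP-1 subunit Fos was at 1133 and 258 CPM (-2.13, -2.79 to -1.53), Fosb at 743 and 79.5 CPM (-3.22, -4.48 to -2.19), Jun at 608 and 79.5 CPM (-2.94, -4.20 to -1.89) and Egr1 at 570 and 209 CPM (-1.45, -2.22 to -0.74). Summed, the list was at 7214 and 2126 CPM (-1.76, -1.98 to -1.55), and per barcode it had medians of 2496 CPM (617 to 34828) in vehicle and 1355 CPM (300.1 to 6745) in fluconazole. Single genes could rest on few barcodes: 50.3% of the vehicle Fos UMIs came from 1. Giving each barcode equal weight brought the list to -1.34, and leaving out the barcode with the border macrophage genes to -1.48. Among barcodes with at most 2% mitochondrial UMIs it was at -1.16. The same list was at -0.12 in pericytes, -0.03 in smooth muscle, 0.03 in endothelial barcodes and 0.13 in microglia, and its level there (10414 to 38107 CPM) was well above that of group 2. In group 1 it was at 1318 and 884 CPM (-0.58, -1.14 to -0.03), with only Fos measured, from 16 and 4 UMIs.

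The counts of list members that were higher are to be read beside the shares over all genes, 55.4% in group 1 and 47.3% in group 2. Among the matrix genes, the summed 18 collagens of fibrils differed little, at -0.12 (-0.47 to 0.23) in group 1 and -0.09 (-0.29 to 0.10) in group 2. In group 2, 4 of 10 measured collagens were higher, among them Col12a1 (533 and 874 CPM, 0.71, 0.25 to 1.19), and Col3a1 was at a lower level (323 and 179 CPM, -0.85, -1.73 to -0.03). Basement membrane genes were at 0.08 (-0.13 to 0.28) in group 1 and 0.19 (0.05 to 0.34) in group 2, with 9 of 15 measured members higher there. Lama1 was at 886 and 1401 CPM (0.66, 0.30 to 1.03) in group 2 and Col15a1, a collagen of vascular basement membranes, at 570 and 378 CPM (-0.60, -1.2 to -0.02). The proteoglycans and matricellular proteins were at 0.34 (-0.04 to 0.71) in group 1, with 2 of 4 measured members higher, and at -0.21 (-0.33 to -0.10) in group 2, with 4 of 15 higher. Spp1 was at 2259 and 1490 CPM in group 2 (-0.60, -0.89 to -0.31). The genes of elastic fibres and collagen processing were at -0.83 (-1.39 to -0.29) in group 1, from 2 measured members, and at -0.06 (-0.29 to 0.18) in group 2. Matrix proteases and their inhibitors were at 0.19 (-0.22 to 0.60) and -0.09 (-0.29 to 0.10).

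The transporters had ratios of opposite sign in the main groups. In group 2, 12 of 14 measured solute carriers and ABC transporters were higher in fluconazole, beside 47.3% of all genes, with a median of 0.48 beside -0.03 over all genes and a sum of 10224 and 13861 CPM (0.44, 0.33 to 0.55). In group 1, 4 of 11 were higher, beside 55.4% of all genes, with a median of -0.13 beside 0.08 and a sum of 14662 and 12645 CPM (-0.21, -0.36 to -0.06). Slc6a20a was at 0.69 (0.33 to 1.06) in group 2, where its level went from 878 to 1421 CPM, and Abca8a, a lipid transporter of fibroblasts, at 0.92 (0.22 to 1.65). The glutamate transporter Slc1a3 was at -0.41 (-0.74 to -0.09) in group 1 and 0.26 (0.01 to 0.52) in group 2. Slc6a13, a rule gene, differed little, at -0.23 (-0.81 to 0.33) and 0.05 (-0.23 to 0.33). Barcode medians of the list were 14043 and 13155 CPM in group 1 and 11882 and 13240 CPM in group 2, well within the spread between barcodes. In the other classes the transporter list was at 0.24 in endothelial barcodes, 0.10 in pericytes, 0.07 in microglia and -0.39 in smooth muscle.

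Retinoid genes were at -0.10 (-0.52 to 0.32) in group 1 and 0.25 (0.03 to 0.46) in group 2, where 6 of 7 measured members were higher, beside 47.3% of all genes. Aldh1a1, a retinaldehyde dehydrogenase, was at 781 and 1292 CPM in group 2 (0.73, 0.34 to 1.11). In group 1 Aldh1a2 was at 628 and 210 CPM (-1.58, -2.74 to -0.56). Secreted growth factors and binding proteins were at -0.37 (-0.53 to -0.21) in group 1 and -0.13 (-0.18 to -0.08) in group 2, with 2 of 10 and 5 of 16 measured members higher, beside 55.4% and 47.3% of all genes. In group 2 the IGF-binding proteins differed among themselves: Igfbp2 was at 0.21 (0.03 to 0.40), Igfbp4 at -1.66 (-2.51 to -0.88) and Igfbp5 at -2.99 (-4.93 to -1.53). The last 2 rested on 1 vehicle barcode each for 70.4% and 50% of the vehicle UMIs.

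Growth factor receptors were at 0.54 (0.32 to 0.75) in group 1, where 10 of 13 measured members were higher, beside 55.4% of all genes, with a median of 0.60 beside 0.08, and at 0.06 (-0.12 to 0.25) in group 2, where 8 of 13 were, beside 47.3%. Besides Igf1r and Tgfbr3, the EGF receptor Egfr had 6 and 19 UMIs in group 1 (2.12, 0.74 to 3.73) and the leptin receptor Lepr 15 and 26 (1.25, 0.28 to 2.27). The growth factor receptor list was also at 0.32 (0.30 to 0.34) in endothelial barcodes, and at 0.08 in microglia, 0.06 in smooth muscle and 0.00 in pericytes. In group 1 the wider list of IGF1 receptor and insulin signalling was at 0.21 (-0.03 to 0.45), with 6 of 13 measured members higher, and in group 2 at 0.16 (-0.04 to 0.36), with 9 of 14. Over all genes the shares were 55.4% and 47.3%. The meningeal transcription factors were at 0.04 in each main group (-0.14 to 0.23 and -0.11 to 0.18). Among them Zic1, a factor of meningeal development, was at 1.29 (0.29 to 2.35) in group 1 and 0.75 (0.24 to 1.26) in group 2, whereas Ebf1, an early B cell factor of mesenchymal cells, was at 1.76 (0.79 to 2.81) and -3.72 (-6.83 to -1.76). In each group 1 barcode held most Ebf1 UMIs of the higher library (71.9% and 68.6%).

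The genes of cholesterol synthesis, which include a counterpart of the fungal sterol enzyme that azoles block, had few UMIs. Over all members they summed to 179 and 87 UMIs (-0.25, -0.64 to 0.12), and of 5 genes with at least 20 UMIs 4 were higher in fluconazole, beside 50.2% of all genes. Cyp51, the mouse counterpart of that enzyme, had 5 UMIs in the vehicle and 1 in the fluconazole members. No gene of cholesterol synthesis reached 20 UMIs in either main group, and the sum of the list was at -0.99 (-2.14 to 0.05) in group 1 and -0.10 (-0.71 to 0.51) in group 2. Sterol uptake and transport was at -0.32 (-0.73 to 0.10) and -0.12 (-0.24 to 0.00), and the second value rested on Apoe and turned to 0.20 without the barcode with the border macrophage genes. Caveolae and flotillins, proteins of membrane domains, were at 0.19 (-1.18 to 1.53) and -0.24 (-0.86 to 0.36).

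Of the remaining lists, the interferon response was lower in group 2, at 2335 and 1381 CPM (-0.76, -1.06 to -0.46). Only 4 members were measured and 1 of them was higher. The member with most UMIs was Ifitm3, a membrane protein against viruses, at 1066 and 606 CPM (-0.81, -1.27 to -0.37). The list was also below 0 in pericytes (-0.43), smooth muscle (-0.54), endothelial barcodes (-0.12) and microglia (-0.34). In group 1 it was at 0.12 (-0.50 to 0.73). Chemokines, cytokines and complement were at -0.07 (-0.58 to 0.44) and -0.11 (-0.39 to 0.16) in groups 1 and 2, and heat shock chaperones at -0.14 in each. The glucocorticoid response was at 0.24 (-0.14 to 0.63) and 0.09 (-0.16 to 0.34), with 4 of 10 measured members higher in group 2, beside 47.3% of all genes. Signs in group 2 turned for several lists among barcodes with at most 2% mitochondrial UMIs: basement membrane stood there at -0.11, proteoglycans and matricellular proteins at 0.028, secreted factors at 0.27 and ribosomal proteins at 0.017, while the solute carriers stayed above 0 at 0.15. Mitochondrially encoded genes were at -0.06 (-0.25 to 0.13) and -0.18 (-0.25 to -0.10), nuclear-retained RNAs at 0.02 (-0.06 to 0.10) and 0.50 (0.44 to 0.55), and ribosomal proteins at -1.27 (-1.52 to -1.04) and -0.47 (-0.54 to -0.41).

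**Figure D5:**
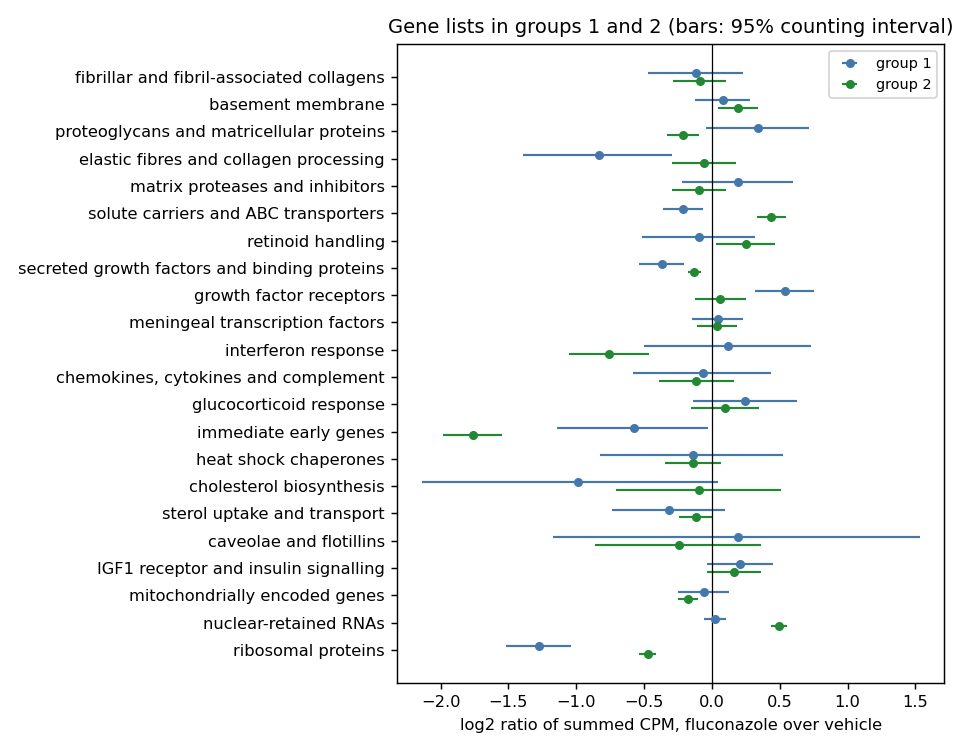
Log2 ratio of the summed CPM of each of the 22 gene lists, fluconazole over vehicle, within group 1 and within group 2 (points, with bars for the 95% counting interval and a line at 0). The immediate early genes of group 2 lie furthest left at -1.76 and the growth factor receptors of group 1 furthest right at 0.54, and the solute carriers fall on opposite sides of 0.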

How the data were processed

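The authors deposited 1 matrix of raw UMI counts per library (10x 3′ v3.1), made with Cell Ranger on the mm10 build and worked on with Seurat 4.0.0 in R 4.0.3, per the submitters' processing notes. These name Cell Ranger 9.0.0, whereas the file headers name 8.0.1. Other filters are not given in the sources used here. The matrices held 14924 vehicle and 12637 fluconazole barcodes, with 76891692 and 78380009 UMIs over 33696 features.

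Barcodes with under 500 genes or over 5% mitochondrial UMIs were left out. Doublets were called with Scrublet in scanpy 1.11.5 at an expected 8%, which marked 3.77% and 3.99% of barcodes and 1 member, and none was removed. In all, 45 barcode sequences occurred in both libraries, none a member in both. Members were scaled to 10000 counts, log-transformed and clustered (1500 variable genes, 15 components, 15 neighbours, Leiden resolution 0.5; group 3 was split as at resolution 1). Counts were summed per library and divided by all UMIs of those barcodes (CPM). CPM has exact Poisson limits, log2 ratios have exact conditional binomial limits and shares have Clopper-Pearson limits. These treat UMIs as independent and leave out differences between barcodes and mice. Scripts were tested on simulated data, which were drawn as independent UMIs and so also held no differences between barcodes.

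Comparison classes (pericytes, smooth muscle, endothelial barcodes, microglia) came from marker rules, and a barcode meeting 2 of them stayed out of both. Genes named by treatment ratio had at least 50 UMIs, at least 10 barcodes with a UMI in the higher library and no barcode with over 20% of its UMIs, ranked by the interval limit nearest 0 (15 each way over all members, 10 within a group). The 10 most abundant genes and the 15 of largest fold over other barcodes were named too, the latter with a choice among those that have symbols of known function. List members were named for their largest differences or levels, and a few (Igf1r in other classes, Tmem267 and Zbtb16) after their values were seen. The members and the lists were chosen with earlier results of these data known. Alternatives changed the rule, depth, mitochondrial share, doublets, scaling and weights. Results for some items are not reported here.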

Additional observations from a re-analysis of the deposited data

Results flagged for a closer look

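The summed solute carriers and ABC transporters had a log2 ratio of fluconazole over vehicle of -0.21 in group 1 and 0.44 in group 2, with counting intervals that did not overlap. The difference between the 2 groups was not tested, since each rests on the same pair of libraries. Among group 2 barcodes with at most 2% mitochondrial UMIs the ratio was 0.15, and among those above 2% it was 0.62.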

How the results depend on the processing

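The ratio of member shares stayed within its interval under every alternative run for it (0.656 to 0.923). Counts of genes at least 2-fold apart followed the depth asked for. Over all members the count was 337, against 1010 at a minimum of 20 UMIs, 156 at 100 UMIs, 180 with at least 4 rule genes, 152 with no UMI of the other classes' genes, 191 with mitochondrial shares above 2% and 83 after thinning. In group 1 the count was 21, against 145, 3, 6 and 7 under the first 4 of these and 7 after thinning. In group 2 it was 57, against 336, 11 and 6 at 20 UMIs, 100 UMIs and after thinning, and 11 at a mitochondrial share of at most 2%. Of 22 lists, 9, 10 and 8 had a higher sum over all members, in group 1 and in group 2. With mitochondrial shares of at most 2% these were 16 over all members and 15 in group 2, and in group 1 the number was 6 with median-of-ratios size factors and 6 without each list's top barcode. Resolution 1 gave 8 groups.

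Signs turned over all members for the items below, each with a counting interval that left out 0 in the main setting. Further lists turned sign there and in group 2, as the counts above show, and are not named here. With at least 2 rule genes, basement membrane was at -0.23, solute carriers at -0.077, retinoid handling at -0.10 and mitochondrial genes at 0.019. At mitochondrial shares of at most 2%, proteoglycans were at 0.34 and elastic fibres at 0.054, and above 2% Ctnna2 was at 1.05, retinoid handling at -0.022 and the glucocorticoid response at -0.27. The last was also at -0.087 without groups 3b and 5 and at -0.042 after thinning. Basement membrane was at -0.12 with equal weight per barcode, and Trpm3 at -0.46 and Sdk1 at -0.037 with equal weight to groups 1 and 2. In group 2, retinoid handling was at -0.045 with no UMI of other classes' genes. At mitochondrial shares of at most 2%, Rpl41 was at 0.22, Ptgds at 0.35, basement membrane at -0.11, proteoglycans at 0.028, secreted factors at 0.27, mitochondrial genes at 0.25 and ribosomal proteins at 0.017. Except for counts that fell because fewer genes or UMIs were used, the cause was not tested.

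No paired analysis was possible because each treatment has 1 library and the labels give no replicate numbers. Mitochondrial shares above 2% were not run for group 1, which has 3 such barcodes per library, and the settings with at least 2 rule genes and without groups 3b and 5 give no value within a group. The settings on mitochondrial shares above 2%, groups 3b and 5 and border macrophage UMIs were chosen after seeing the data. Depth limited group 1 (65269 and 47530 UMIs) more than group 2 (133217 and 100643), as 319 against 775 genes reached 50 UMIs.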

Other observations

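Zbtb16, a zinc finger factor known to respond to glucocorticoids, had 6 UMIs in 4 of 31 vehicle barcodes and 31 UMIs in 12 of 23 fluconazole barcodes of group 2 (log2 ratio 2.77, 1.49 to 4.33). Its ratio was 0.92 in pericytes, 0.20 in smooth muscle, 1.5 in endothelial barcodes and -0.06 in microglia. The small groups differed in immediate early genes, with group 4 at 19992 CPM in 8 vehicle and 2514 CPM in 2 fluconazole barcodes, and group 5 at 14952 CPM in 8 vehicle and 39543 CPM in 2 fluconazole barcodes.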
